A study of Mus musculus with 2 samples.

Results

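Granular and smooth neural stem cells were compared at matched autofluorescence. Side scatter (SSC-A) rises with the number of light-scattering structures inside a cell and forward scatter (FSC-A) mainly with its size, so their ratio served as granularity per size. Within each of 16 groups of cells, formed by 4 cultures and 4 sort gates along the intensity of punctate autofluorescence, cells were chosen by their measured SSC-A/FSC-A: those above the group's median were called granular and the rest smooth. Of 640 cells, 317 were granular and 323 smooth. The quiescent culture gave 86 granular and 88 smooth cells, the 24 h exit culture 75 and 76, the 48 h exit culture 75 and 76, and the activated culture 81 and 83.

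The neural stem cells came from hippocampi of C57BL6/J males, 6 weeks old, and were grown in culture and sorted singly into 384-well plates for SORT-seq, a 3' end method that counts transcripts by molecular identifiers. Quiescent cells were held with 50 ng/mL BMP-4 and FGF-2 without EGF for at least 3 days. Cells at 24 h and 48 h of quiescence exit had been quiescent and were moved to activation medium with 0.5 ug/mL noggin, an antagonist of BMP-4. Activated cells grew with 20 ng/mL FGF-2 and EGF, without BMP-4. Each state counts as 1 culture here, since the labels mark no separate cultures within a state. Quiescent and 24 h exit cells lay on one plate and activated and 48 h exit cells on the other, so state, culture and plate cannot be told apart. The number of animals behind each state is not given in the sources used here. P-values set the granular-smooth difference against its spread between these 4 cultures of 4 states, or fewer cultures where some were left out. In edgeR much of that spread is shared across genes, with a prior worth 38.2 degrees of freedom against 3 residual ones. No p-value covers the spread between separate cultures of the same state.

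Neural stem cells of the hippocampus keep a reserve in quiescence and make neurons after they re-enter the cell cycle. Quiescent stem cells are known for large lysosomes, lipid stores and a metabolism that leans on fatty acid oxidation. Unstained cells glow because lysosomes hold lipofuscin and because flavins and NAD(P)H fluoresce, and lysosomes, mitochondria, lipid droplets and condensed chromatin all scatter light sideways. The comparison asks whether cells of equal autofluorescence that differ in granularity also differ in their RNA.

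The ratio and its 2 parts, SSC-A and FSC-A, chose the cells and are given as a description. Averaged over gates, the median ratio was 0.686 in granular and 0.502 in smooth quiescent cells, 0.701 and 0.467 at 24 h, 0.581 and 0.430 at 48 h, and 0.291 and 0.228 in activated cells. The granular median of the activated culture thus lay below the smooth median of the other 3 cultures, though single cells overlapped, with activated granular cells reaching 0.562 and 48 h smooth cells going down to 0.184, so granular is a rank within a culture and gate and not a level. SSC-A of granular cells was 1.31 times that of smooth cells and FSC-A was 0.903 times, with FSC-A lower in granular cells in 15 of 16 groups. Granular cells were therefore also the ones with less forward scatter. At the threshold granular and smooth cells nearly touched, since the lowest granular and the highest smooth cell of a group lay apart by 0.00551 at the median over groups and by at most 0.0153.

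**Figure D1:**
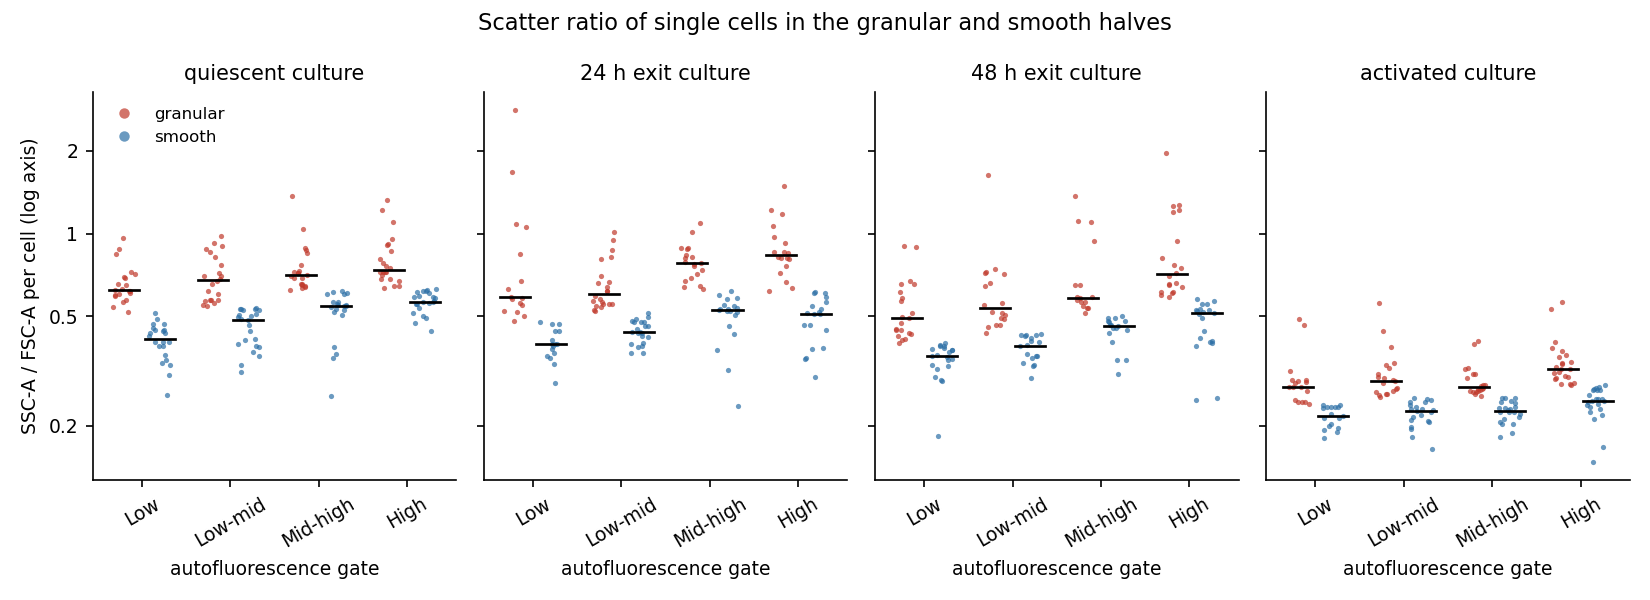
SSC-A/FSC-A of each cell (log axis) by autofluorescence gate in the 4 cultures, with granular cells in red on the left and smooth cells in blue on the right of each pair; black lines mark medians. They meet at each group's median by construction, and the medians of the 4 activated groups, 0.239 to 0.281, lie below those of every other culture.

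Of 15 measures that did not choose the cells, several leaned the same way in all 4 cultures, none by more than a small factor. Autofluorescence of granular cells was 1.03 times that of smooth cells (mean log2 difference 0.04 ± 0.03, SD, n = 4 cultures) and higher in 13 of 16 groups, so sorting by gate left a small difference within gates. Orange emission under the yellow-green laser was 1.11 times that of smooth cells (0.15 ± 0.08) and green emission under the blue laser, where flavins glow, 1.08 times (0.11 ± 0.08), each higher in 13 of 16 groups. Green emission was 1.14, 1.11, 1.08 and 1.00 times that of smooth cells in the quiescent, 24 h, 48 h and activated cultures. The total transcript count of granular cells was 1.05 times that of smooth cells (0.06 ± 0.04), and transcripts per spike-in count, a measure of RNA per well, were 1.01 times (0.01 ± 0.07), higher in 2 of 4 cultures. With 4 cultures the exact two-sided sign-flip permutation test cannot give a p below 0.125, and no measure was below 0.234 after Benjamini-Hochberg adjustment over the 15.

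The phase of the cell cycle that the authors assigned was spread over granular and smooth cells. In the quiescent culture 3 of 86 granular and 2 of 88 smooth cells were called G2M, at 24 h 2 of 75 and 1 of 76, at 48 h 23 of 75 and 35 of 76, and in the activated culture 39 of 81 and 40 of 83. At 48 h the share was 30.7% of granular cells (exact 95% binomial interval 20.5 to 42.4) and 46.1% of smooth cells (34.5 to 57.9), intervals that cover counting error only. The authors' G2/M score was lower in granular cells by 0.03 on average, with an SD over cultures of 0.05 and an exact permutation p of 0.375 (n = 4). Their S score was lower by 0.02, with an SD of 0.04 and an exact permutation p of 0.5. Their G0 score was higher by 0.03, with an SD of 0.03. It was higher in granular cells in 4 of 4 cultures and 11 of 16 groups, with an exact permutation p of 0.125.

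Counts were summed over gates into 8 sums, a granular and a smooth one per culture, of 1487618 to 3344824 transcripts each. Markers of neural stem cells were present, those of endothelium and microglia were at or near 0, and genes listed for neurons and for the oligodendrocyte lineage were expressed in part. The summed level of 14 stem and progenitor genes was 4536 to 7004 CPM, counts scaled to a common library size, in granular sums and 4618 to 7507 CPM in smooth sums. The summed level of 12 endothelial genes was 0.642 to 1.99 CPM in granular and 1.34 to 3.59 CPM in smooth sums, with Cldn5 and Cdh5 at 0, and that of 15 microglial genes 10.8 to 19.7 CPM in granular and 12.3 to 21.5 CPM in smooth sums, with C1qa and Ptprc among 8 genes at 0. The summed level of 16 neuron or neuroblast genes was 265 to 443 CPM in granular and 246 to 449 CPM in smooth sums, with Stmn2 and Neurod6 at 0. The 12 oligodendrocyte-lineage genes summed to 1881 to 3672 CPM in granular and 2025 to 4010 CPM in smooth sums, with Sox10, Gpr17, Mog and Mag at 0 and Olig2 among those expressed. The plates use the same well barcodes, and 269 of them were kept on both.

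No gene was called different between granular and smooth cells over the 4 cultures. Of 10363 genes tested with edgeR's quasi-likelihood test with culture as a block, 0 (0%) had a Benjamini-Hochberg adjusted p under 0.05, and the smallest adjusted p was 0.839. At an unadjusted p under 0.05 there were 468 genes (4.52%), 238 higher (2.3%) and 230 lower (2.22%) in granular cells. DESeq2 called 0 genes too and had 42 at an unadjusted p under 0.05, while voom with limma called 3, all higher in granular cells: the mitochondrial ribosomal RNA mt-Rnr2, the cytochrome oxidase subunit mtCo1 and Gpm6b, each at an adjusted p of 0.0484. The median size of a gene's log2 difference was 0.10, and 95% of genes lay within 0.41. For the 6211 genes with at least 20 CPM the median SE was 0.11. The same fit applied to the highest against the lowest autofluorescence gate, over 8739 genes, called 208 (2.38%), 166 higher (1.9%) and 42 lower (0.481%) in the highest gate. The counts differ in more than the measure, since the gates are the extremes of autofluorescence and the ratio was split at its median.

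**Figure D2:**
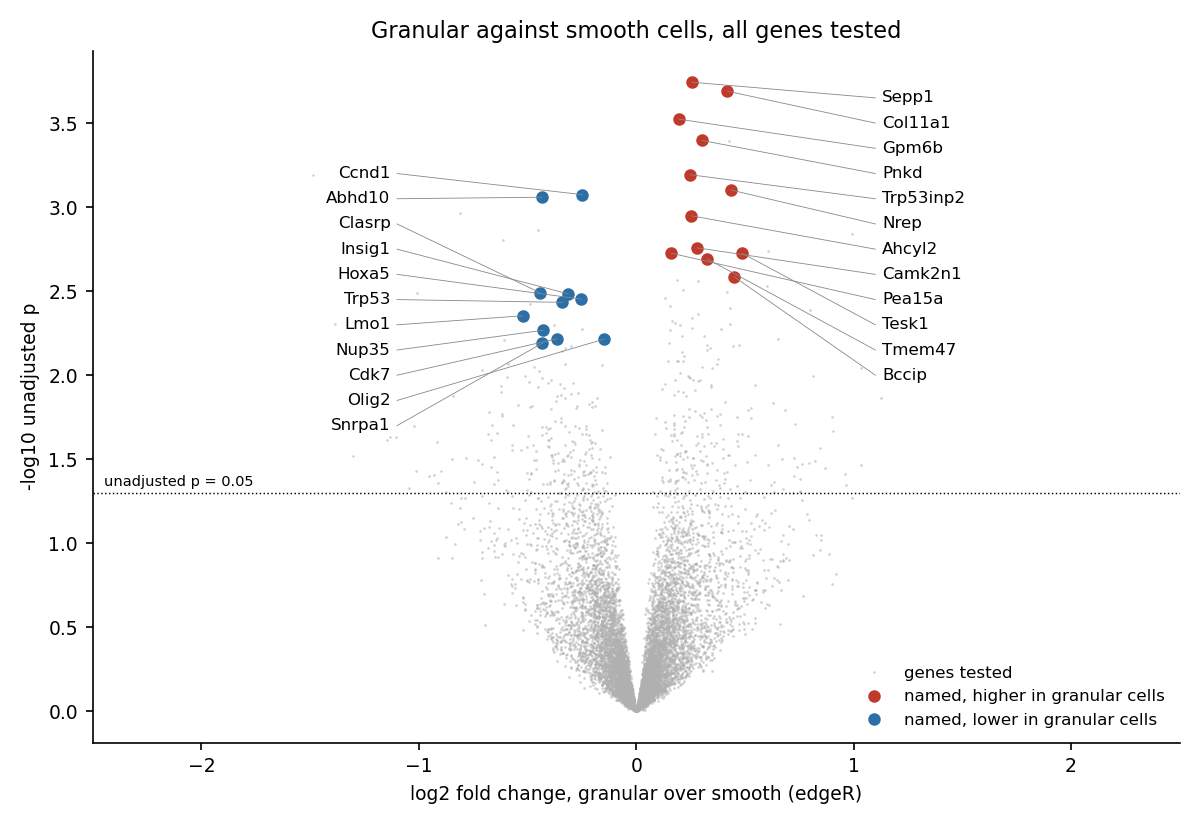
Log2 fold change of granular over smooth cells (x axis) against -log10 of the unadjusted p (y axis) for the 10363 genes tested, with the 12 named genes above 0 and the 11 below 0 labelled. The cloud is even on both sides, with 5182 genes above and 5181 below 0, and no gene passes adjustment.

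The genes named next had the smallest p in each direction among genes of at least 20 CPM with the same sign in all 4 cultures. That sign pattern was upward in 618 genes (5.96%) and downward in 631 (6.09%). None of them passed the test, and their values show how small the differences were. Sepp1, the secreted selenium carrier selenoprotein P, stood at 499.8, 1018, 471 and 73.0 CPM in granular cells of the quiescent, 24 h, 48 h and activated cultures, and at 455, 823, 344 and 70.9 CPM in smooth cells. The granular value was the higher of each pair, with the widest gap on the log2 scale at 48 h (0.45) and the narrowest in activated cells (0.04), and the fitted log2 difference was 0.26 ± 0.06 (SE; edgeR adjusted p = 0.839). Col11a1, a chain of fibrillar collagen, stood at 187, 87.4, 43.4 and 26.0 CPM in granular cells and at 128, 82.2, 28.4 and 20.0 CPM in smooth cells. Its log2 difference was 0.42 ± 0.10 and smallest at 24 h, and without the 24 h culture it was 0.52 with an adjusted p of 0.0311 in edgeR, 1 of 2 genes called then. The other was Apoe, a lipid carrier, at -0.44 (adjusted p = 0.0083), which is outside the naming rule and was chosen after its value was seen.

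Gpm6b, a proteolipid-family membrane protein of glia and neurons, had 2999, 2791, 1044 and 523 CPM in granular cells and 2723, 2149.5, 953 and 480.1 CPM in smooth cells, a log2 difference of 0.20 ± 0.05. Nrep, named for its role in neuronal regeneration, had 119, 43.7, 18.1 and 27.1 CPM in granular cells against 94.9, 30.6, 12.7 and 18.3 CPM in smooth cells, a difference of 0.44 ± 0.12. The Nrep difference lay between 0.33 and 0.54 in each of the 4 cultures. Camk2n1, an inhibitor of the calcium-dependent kinase CaMKII, Tesk1, a kinase that acts on cofilin, and Pnkd were each higher in granular cells in 15 of 16 groups of culture and gate, with log2 differences of 0.28 ± 0.08, 0.49 ± 0.15 and 0.30 ± 0.08. Counts of groups given for named genes come from parts of the sums that ranked these genes, so they are no separate test. The other higher genes were Trp53inp2, which takes part in autophagy, Ahcyl2, Pea15a, Tmem47 and Bccip, at 0.16 to 0.45.

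Among genes lower in granular cells, Ccnd1, the cyclin that carries cells through G1, had 32.9, 205, 1002 and 1012 CPM in granular cells of the quiescent, 24 h, 48 h and activated cultures, against 59.9, 279, 1129 and 1061 CPM in smooth cells. The gap was widest in quiescent cells, at -0.84 on the log2 scale (exact 95% interval -1.28 to -0.46, counting error only), and was -0.07 in activated cells. Over all cultures it was -0.25 ± 0.07 (edgeR adjusted p = 0.898), and in a fit of the quiescent and 24 h plate alone, which leaves 1 residual degree of freedom, -0.58 with an edgeR adjusted p of 0.00284. Hoxa5, a homeobox factor, had 97.5, 78.7, 106 and 99.8 CPM in granular cells and 112, 96.4, 124 and 123 CPM in smooth cells, and was lower in granular cells in 13 of 16 groups. Trp53, which encodes p53, had 31.3, 20.8, 50.3 and 65.1 CPM in granular cells and 39.0, 32.6, 63.0 and 79.1 CPM in smooth cells. Olig2, a transcription factor of glial progenitors, was expressed far more strongly, at 482, 1237, 1639.6 and 903 CPM in granular cells and 513, 1570, 1683 and 986 CPM in smooth cells, with a log2 difference of -0.15 ± 0.05. The summed level of the oligodendrocyte-lineage markers, which includes Olig2 itself, was lower in granular cells in each culture. Gene by gene that list did not lean the same way. Of 6 tested genes 3 were higher and 3 lower, with a median of 0.05. By culture the median was 0.23, 0.02, 0.17 and -0.06 in quiescent, 24 h, 48 h and activated cells. The part of these markers in the Olig2 difference was not tested. The rest were Abhd10, Clasrp, Lmo1, Nup35, a nuclear pore protein, Cdk7, the kinase that activates other cyclin-dependent kinases, and Snrpa1, a protein of the U2 spliceosome particle, at -0.52 to -0.37.

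**Figure D3:**
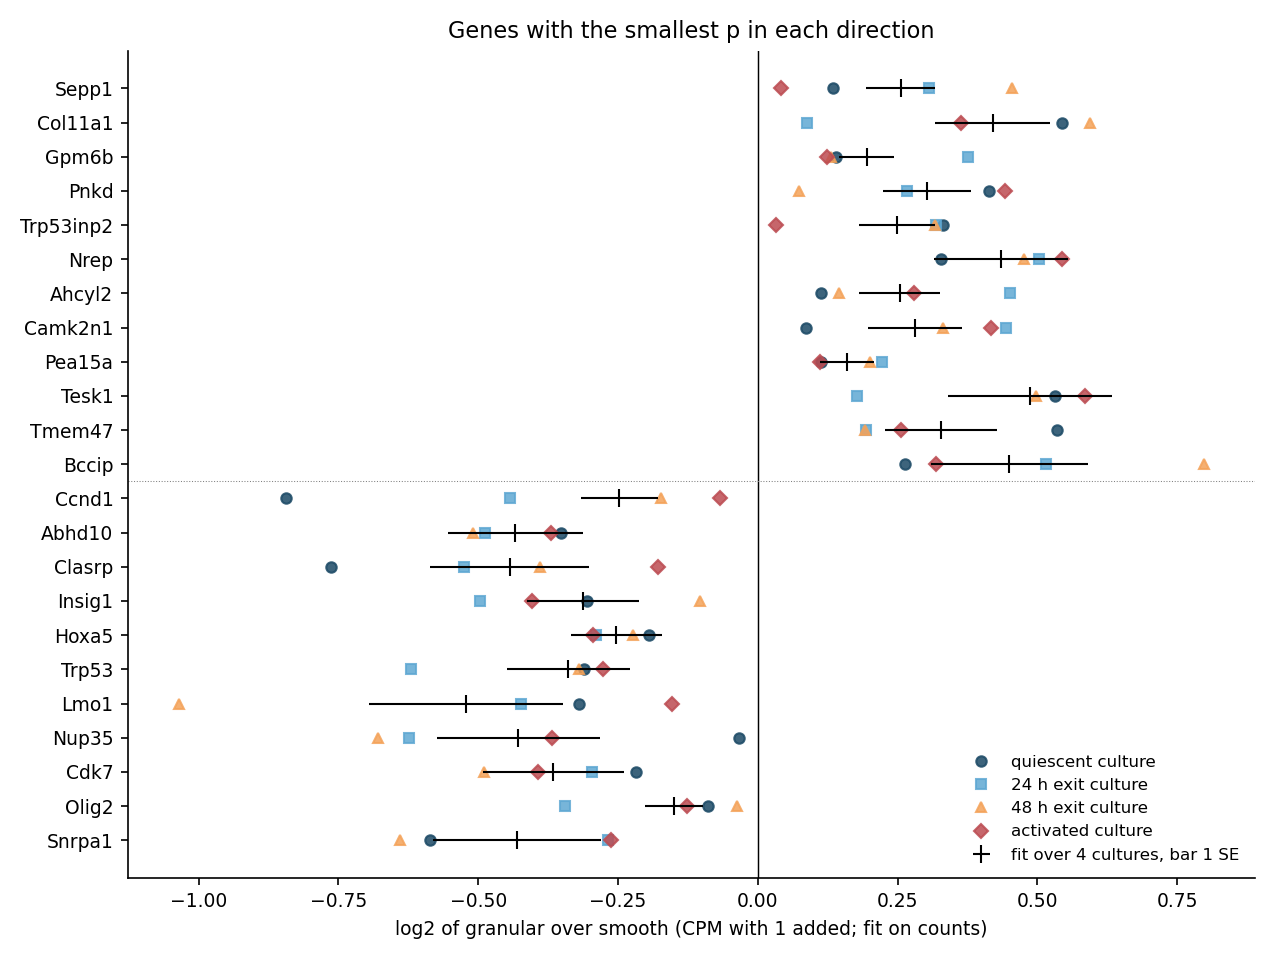
Log2 of granular over smooth (x axis) for the named genes of smallest p (y axis), 12 above and 11 below 0. Symbols are the 4 cultures, from CPM with 1 added, and black marks are the edgeR fit with 1 SE. All symbols of a gene lie on one side of 0 because the naming rule asked for it; Lmo1 at 48 h, -1.03, is the point farthest out.

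Genes of cholesterol synthesis and its control gave the lowest median among lists with at least 3 tested genes. Of 22 tested genes 3 were above and 19 below 0, with a median log2 difference of -0.15 where the median of all genes was 0.00, and 7 of 22 were lower at an unadjusted p under 0.05 against 2.22% of all genes. None was called. Insig1, which retains the sterol-regulated factor SREBP in the endoplasmic reticulum, had 41.4, 43.0, 88.3 and 55.5 CPM in granular cells of the quiescent, 24 h, 48 h and activated cultures and 51.5, 61.1, 94.96 and 73.7 CPM in smooth cells, a log2 difference of -0.31 ± 0.10, and was lower in granular cells in 12 of 16 groups. The list did not lean one way everywhere: its median was -0.42 at 24 h, -0.06 at 48 h and -0.37 in activated cells, but 0.16 in quiescent cells. The fitted median was -0.02 without the activated culture and -0.26 without the quiescent one. Of the 22, 3 were lower in all 4 cultures, Insig1 among them. Enzymes of the pathway at an unadjusted p under 0.05, picked for that value, included Tm7sf2 at -0.33 ± 0.13, Lss at -0.29 ± 0.13, Ebp at -0.38 ± 0.17 and Fdps at -0.19 ± 0.09. Tm7sf2 was lower in granular cells in 13 of 16 groups and Lss in 12 of 16.

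Genes of mitochondrial respiration lay mostly above 0, by very little. Among 73 tested nuclear-encoded respiratory chain genes, 60 lay above 0 (82.2%, against 50.0% of all genes), with a median of 0.06 and no call. At an unadjusted p under 0.05, 6 were higher and 1 was lower. Ndufb7, a subunit of complex I, was at 0.20 ± 0.09 and Uqcrb, a subunit of complex III, at -0.20 ± 0.08. The list's median was 0.10, 0.07, 0.03 and 0.01 in the quiescent, 24 h, 48 h and activated cultures. Of 15 transcripts of the mitochondrial genome 13 were higher in granular cells, with a median of 0.05. That median was 0.16 with the lowest and highest autofluorescence gates alone and -0.03 with the middle gates alone. The cytochrome oxidase transcript mtCo1 had 25569.7, 26539.5, 32724 and 20689 CPM in granular cells and 24889, 24498, 29925 and 19510.2 CPM in smooth cells. The ribosomal RNA mt-Rnr2 had 56502, 65205, 78668 and 45217 CPM in granular cells against 57077, 61669, 70021 and 41843 CPM in smooth cells, so it was higher in granular cells in 3 of 4 cultures. In a fit of the activated and 48 h plate alone mt-Rnr2 was called, at 0.14 with an edgeR adjusted p of 0.0193. Reads of mitochondrial transcripts can also come from nuclear copies, which the counts do not separate.

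Genes of lysosomes and autophagy gave medians near 0. Of 40 tested lysosomal hydrolases 22 were higher in granular cells, with a median log2 difference of 0.01, and of 34 genes of the lysosomal membrane and its proton pump 20 were, with a median of 0.04 that was -0.01 without the quiescent culture. In the second list 0 genes were higher and 2 lower at an unadjusted p under 0.05, Tmem175, a lysosomal ion channel, at -0.43 ± 0.18 and lower in granular cells in all 4 cultures, and Atp6ap2, an accessory protein of the proton pump, at -0.19 ± 0.09 and lower in 3 of 4. Lamp1, a main protein of the lysosomal membrane, had 934, 1143, 666 and 377 CPM in granular cells and 920.1, 1055, 614 and 371 CPM in smooth cells, and its log2 difference was 0.07 with a 95% interval of -0.03 to 0.17. Ctsd, the protease cathepsin D, was at 0.07 with an interval of -0.07 to 0.22. Sqstm1, the autophagy receptor p62, was at -0.08 (-0.20 to 0.05). None of the 3 intervals reached beyond 0.22 in either direction. Of 34 autophagy genes 21 were higher in granular cells, with a median of 0.05, Map1lc3b, the precursor of the autophagosome protein LC3B, at 0.20 ± 0.07 and Ulk2, a kinase that starts autophagy, at 0.31 ± 0.12. Of 30 genes of lipid droplets and fatty acid handling 18 were higher, with a median of 0.04, and Plin2, a coat protein of lipid droplets, was at -0.11 ± 0.18.

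**Figure D4:**
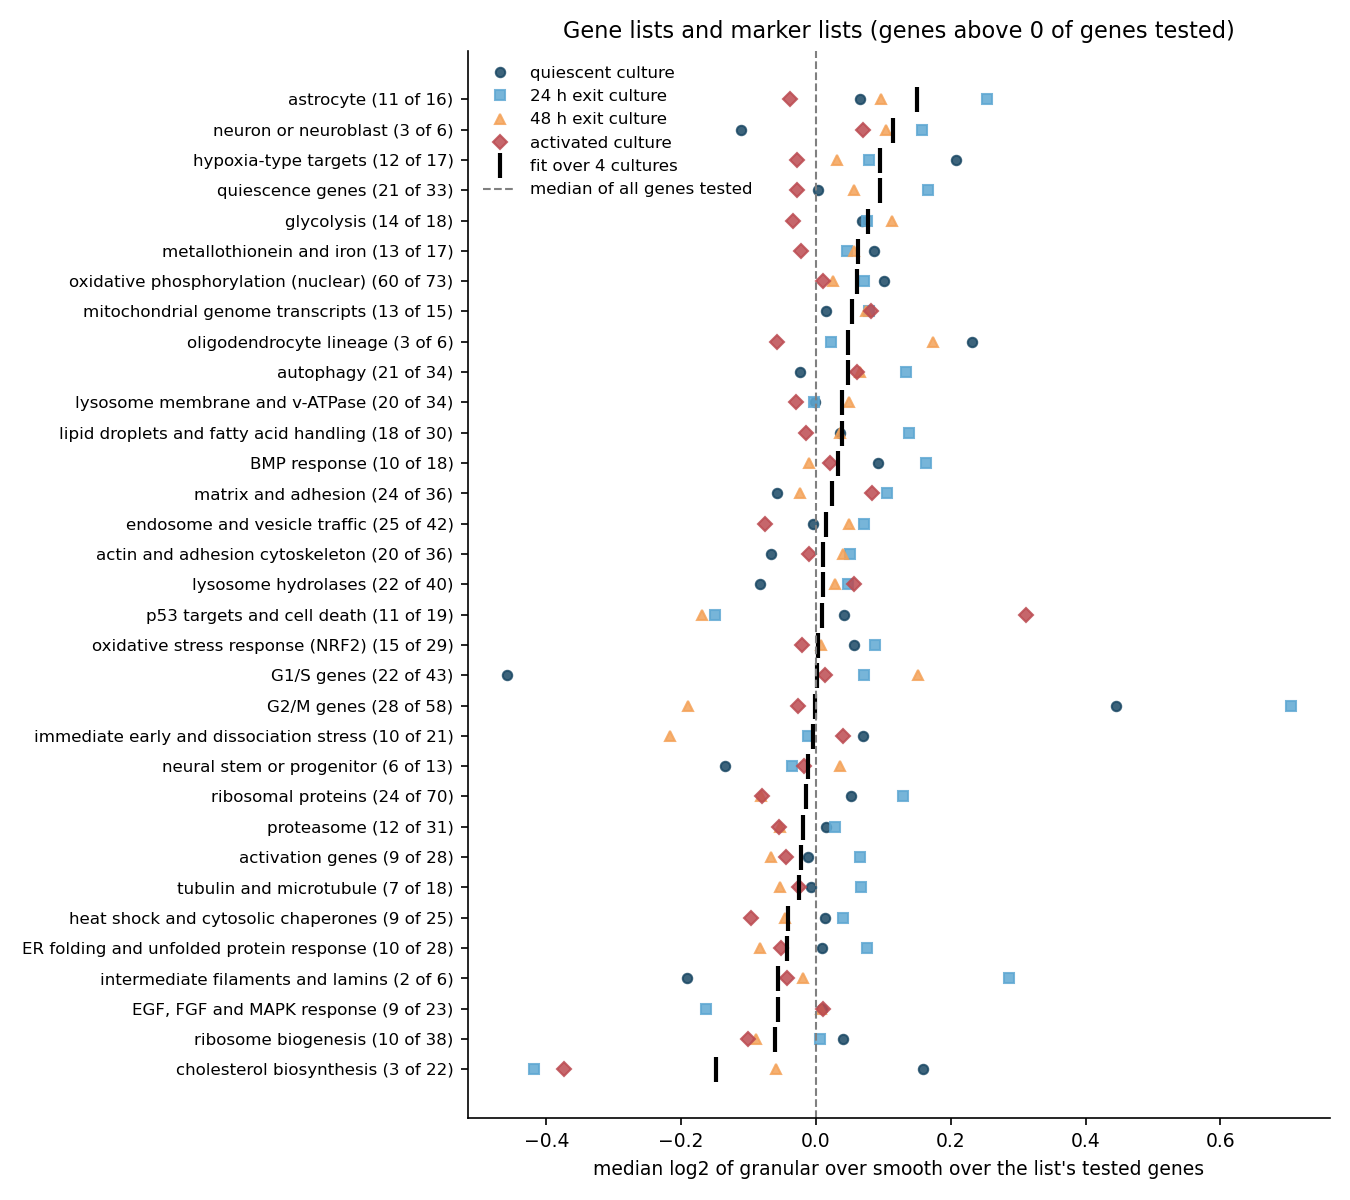
Median log2 of granular over smooth (x axis) for each gene or marker list with at least 3 tested genes, with the number of genes above 0 of those tested in brackets. Symbols are the 4 cultures, black bars the fit over all 4 and the dashed line the median of all genes. The fitted medians lie between -0.15 for cholesterol synthesis and 0.15 for astrocyte markers, and for G2/M genes the cultures spread from -0.19 to 0.70.

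Markers of astrocytes, the glia whose gene programme quiescent stem cells share, had the highest median among such lists, 0.15. Of 16 tested genes 11 were above and 5 below 0. At an unadjusted p under 0.05, 7 of 16 were higher in granular cells and 0 were lower, against 2.3% of all genes. Apoe, which also stands on this list, ran the other way without the 24 h culture, at -0.44. Aldoc, the brain form of the glycolytic enzyme aldolase, had 3385, 3321, 988 and 706 CPM in granular cells and 3237, 2479, 816 and 756 CPM in smooth cells, so the activated culture was turned round. Gfap, the intermediate filament of astrocytes, had 87.0, 20.2, 2.93 and 0.292 CPM in granular cells and 59.9, 15.6, 2.03 and 2.25 CPM in smooth cells, the activated values resting on 1 and 8 transcripts. The other 5 genes at such a p, picked for it, were the water channel Aqp4 at 0.43 ± 0.11, the glutamate transporter Slc1a2 at 0.23 ± 0.07, S100b at 0.28 ± 0.09, Sparcl1 at 0.21 ± 0.08 and the acyl-CoA synthetase Acsbg1 at 0.14 ± 0.06. S100b and Acsbg1 were higher in granular cells in all 4 cultures and the other 3 in 3 of 4. The summed level of the 17 listed markers was 1707 to 9036 CPM in granular and 1747 to 7947 CPM in smooth sums, higher in granular cells in 3 of 4 cultures. The list's median was 0.06, 0.25 and 0.10 in the quiescent, 24 h and 48 h cultures and -0.04 in the activated one, and 0.02 in the fit of the activated and 48 h plate alone. Of 33 genes listed for quiescence 21 were higher, with a median of 0.10. Without the 24 h culture that median was -0.00; by culture it was 0.00, 0.17 and 0.06 in quiescent, 24 h and 48 h cells and -0.03 in activated cells. Of 28 listed for activation 9 were higher, with a median of -0.02; Ccnd1 and Olig2 stand on that list.

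Genes of protein synthesis and folding had medians slightly below 0 over the 4 cultures, and the plates parted. Of 38 tested ribosome biogenesis genes 10 were higher in granular cells, with a median of -0.06, and Bop1, which processes ribosomal RNA, was at -0.26 ± 0.11. The list's median was 0.04 and 0.01 in the quiescent and 24 h cultures and -0.09 and -0.10 in the 48 h and activated cultures. Of 28 genes of protein folding in the endoplasmic reticulum 10 were higher, with a median of -0.04, and the chaperone Hspa5 was at -0.16 ± 0.06. By culture that median was 0.01, 0.08, -0.08 and -0.05 in quiescent, 24 h, 48 h and activated cells. Of 70 ribosomal protein genes 24 were higher, with a median of -0.02, and the list's median was 0.05 and 0.13 in the quiescent and 24 h cultures and -0.08 in both the 48 h and the activated culture. The authors' percent of ribosomal protein transcripts per cell was 2.62, 2.25, 4.00 and 6.50 in granular cells of the quiescent, 24 h, 48 h and activated cultures, and 2.42, 2.14, 4.22 and 6.74 in smooth cells. Cell cycle genes had medians of 0.00 for 43 genes of G1/S and -0.00 for 58 of G2/M, averages over cultures that did not lie at 0. For G1/S genes the median was -0.46 in quiescent cells, 0.07 at 24 h, 0.15 at 48 h and 0.01 in activated cells. In the quiescent culture only 4 of 86 granular and 7 of 88 smooth cells were called S. The part of so few cells in the -0.46 was not tested. Mki67, which cells make while they cycle, had a log2 difference of -0.00 with a 95% interval of -0.16 to 0.16. Egfr, the EGF receptor, was at 0.10 ± 0.12 and Vim, an intermediate filament, at -0.03 ± 0.05. Id3, a target of BMP, was at 0.07 ± 0.07, with cultures that went opposite ways: at 24 h it had 290.5 CPM in granular and 189 CPM in smooth cells, a log2 difference of 0.61 (exact 95% interval 0.40 to 0.84, counting error only), and in quiescent cells the difference was -0.12. It was higher in granular cells in 4 of 16 groups. The other lists are in the plot of list medians, and no list held a called gene.

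The G2/M median of 0 hid a split between the plates. A term for a granular effect that differs between the plates, added after the data were seen, was called for 26 genes (0.251% of 10363) in edgeR. In 20 of them (0.193%) the effect was lower in the activated and 48 h cultures, among them 12 of the 58 listed G2/M genes, and in 6 (0.0579%) it was higher. Leaving out 1 culture leaves 1 plate with a single culture, so such fits cannot show whether these calls are stable. The genes given here are the 8 with the smallest p, chosen after their values were seen. Ube2c, which marks mitotic proteins for breakdown, had 86.5 and 81.4 CPM in granular cells of the quiescent and 24 h cultures against 29.3 and 29.9 CPM in smooth cells. In the 48 h and activated cultures it had 294 and 351 CPM in granular cells against 344 and 407 CPM in smooth cells. The difference between the plates was -1.73 ± 0.18 on the log2 scale (edgeR adjusted p = 3.2e-14).

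Ccnb1, the cyclin of mitotic entry, had 31.7, 19.5, 152 and 215 CPM in granular cells of the quiescent, 24 h, 48 h and activated cultures and 6.65, 4.75, 186 and 249.6 CPM in smooth cells, a difference between plates of -2.42 ± 0.32. Cenpa, the centromere histone, and Plk1, a mitotic kinase, differed between plates by -2.05 ± 0.28 and -2.13 ± 0.34, Kpna2, a nuclear import factor, by -1.14 ± 0.17 and Prc1, which bundles the spindle midzone, by -1.12 ± 0.20. Each of the 12 listed G2/M genes that the term called was higher in granular cells in both the quiescent and the 24 h culture. Of the 12, 1 was higher in the 48 h culture and 2 were in the activated one. The term picked these 12 for such a difference, so their signs describe it and do not test it. Over all 58 listed G2/M genes the median was 0.44, 0.70, -0.19 and -0.03 in quiescent, 24 h, 48 h and activated cells. Single cells gave much of the transcripts of the 12 genes. In granular cells the cell with the largest count gave 35.2% to 56.5% of each gene's transcripts in the quiescent culture and 33.7% to 65.6% at 24 h. At 48 h it gave 8.73% to 19.0% and in the activated culture 4.71% to 10.4%. In smooth cells that share was 17.1% to 62.5% in the quiescent culture and 31.5% to 100% at 24 h. It was 6.51% to 11.5% in smooth cells at 48 h and 4.61% to 9.51% in smooth activated cells. Without the top cell on each side Ube2c had 50.2 and 46.8 CPM in granular cells of the quiescent and 24 h cultures. Its smooth cells then had 21.2 and 13.1 CPM, so the pair kept its order. Other genes of the 12, picked here for a narrow gap, came close to level. Without the top cells Top2a had 67.7 CPM in granular and 67.0 CPM in smooth quiescent cells, and Cks2 17.7 and 15.4 CPM. At 24 h Cenpf had 18.3 CPM in granular and 16.6 CPM in smooth cells. With only cells called G0 or G1 by the authors, a call that itself reads such genes, 1 of 8788 genes was called in place of 26. Of the 26, 23 were tested there, and the size of the difference between plates depended on the gene: it was -0.21 for Ube2c, but 0.48 for Malat1, -0.63 for Cd44, -0.87 for Nsdhl, a cholesterol enzyme, 1.47 for Clic5 and 0.62 for Cryab, against 0.46, -0.67, -0.88, 1.06 and 0.61 with all cells. These 5 genes were chosen after their values were seen. The fit of G0 and G1 cells kept few cells of 1 plate. In the activated culture it kept 1 G0 and 13 G1 granular cells, and 0 and 10 smooth ones. At 48 h it kept 12 and 12 granular and 10 and 9 smooth cells. In the quiescent culture it kept 74 and 5 granular and 72 and 7 smooth cells, and at 24 h 69 and 2 and 69 and 4. The part of this loss of cells in the smaller number of calls was not tested. The quiescent and 24 h cultures together held 5 granular and 3 smooth cells called G2M. The test takes its spread from the sums, which does not show the spread between so few cells.

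Outside mitosis, Malat1, an abundant nuclear RNA, had 6889, 8053, 2846 and 2167 CPM in granular cells and 8556, 10101, 2165 and 2326 CPM in smooth cells. It was thus lower in granular cells in the quiescent, 24 h and activated cultures and higher at 48 h, with a difference between plates of 0.46 ± 0.08 (edgeR adjusted p = 4.14e-05) and at most 10.96% of a sum's transcripts from 1 cell. Map1b, which binds microtubules, was the gene still called with G0 and G1 cells only. It had 2.03, 0.672, 4.88 and 129 CPM in granular cells and 23.1, 2.04, 11.2 and 124 CPM in smooth cells. A single cell gave 96.2% of its transcripts in the smooth quiescent cells, and without that cell their level was 0.891 CPM.

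**Figure D5:**
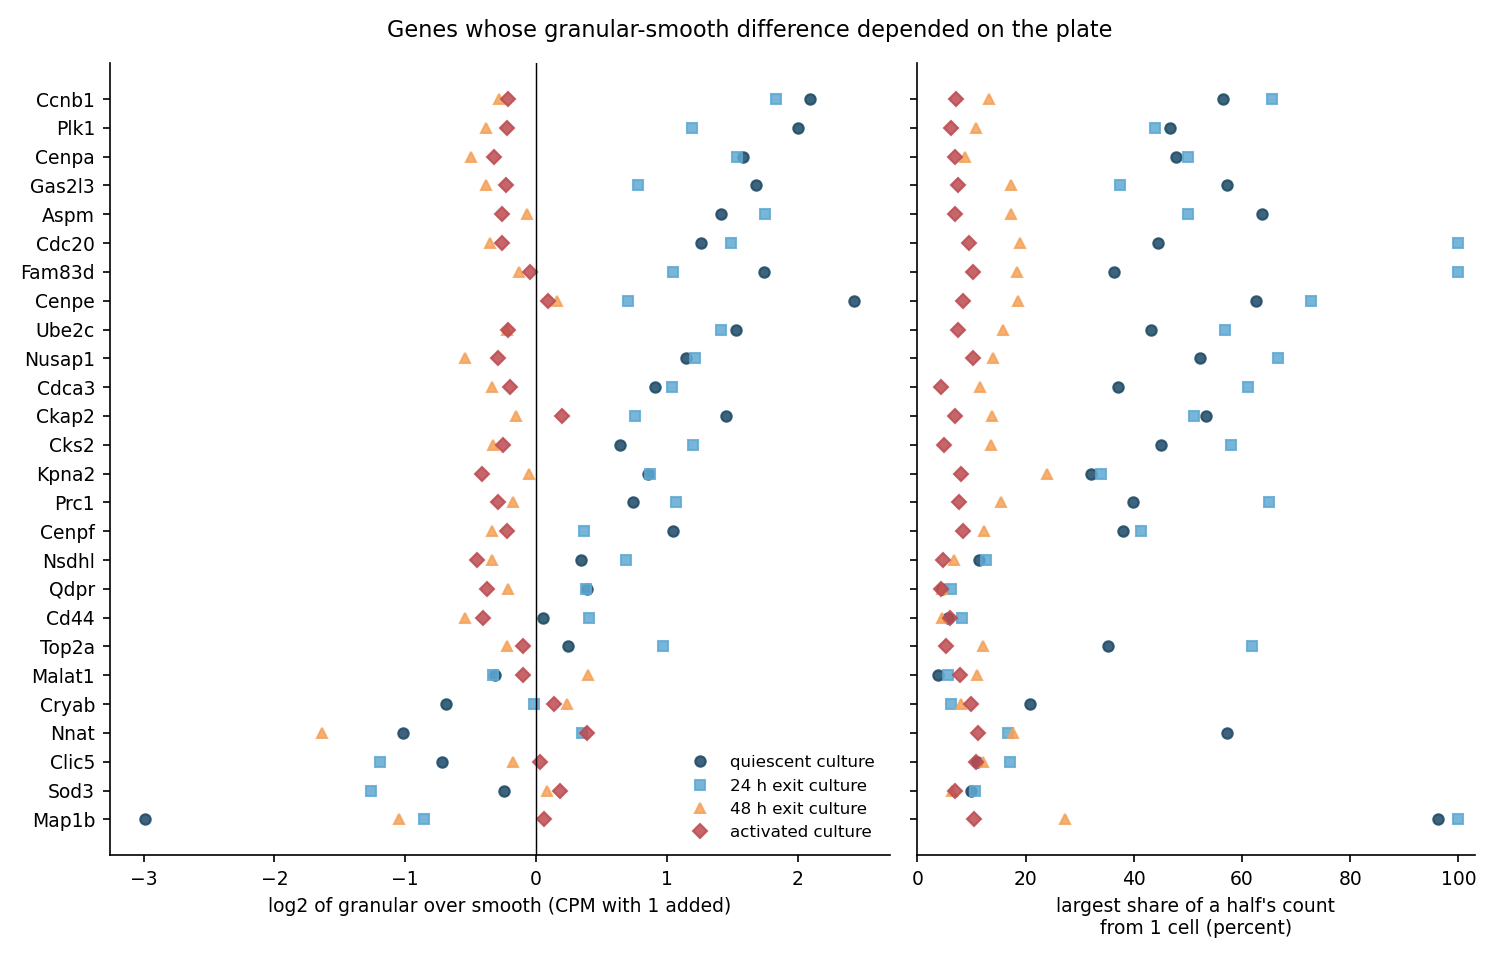
Left, log2 of granular over smooth in the 4 cultures (symbols; CPM with 1 added) for the 26 genes whose difference depended on the plate. Right, the larger of the granular and smooth shares of transcripts that came from 1 cell, in percent. For most mitotic genes in the upper rows, the quiescent and 24 h symbols lie to the right of 0 on the left and above 30% on the right, and the activated symbols lie near 10% or below.

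Each plate fitted alone gave more calls than both together. The quiescent and 24 h plate gave 20 calls (0.21%) among 9525 genes, 14 higher (0.147%) and 6 lower (0.063%), and the activated and 48 h plate 7 (0.0697%) among 10050, 3 higher (0.0299%) and 4 lower (0.0398%), with 1 residual degree of freedom in each. On the quiescent and 24 h plate 7 of the 14 higher calls were on the G2/M list, which holds 58 of the 10363 genes tested over both plates. These cultures held few cells called G2M, as given above. Off that list, Kpna2 at 0.87, Aspm at 1.72 and Fam83d at 1.71 were also called by the term for a difference between plates. The other higher calls were Gpm6b at 0.25, Aldoc at 0.23, Aqp4 at 0.43 and Ctnnb1, which encodes beta-catenin, at 0.36. The 6 lower ones were Malat1 at -0.32, Clic5 at -1.15, Nnat at -0.91, Ccnd1 at -0.58, Sod3, an extracellular superoxide dismutase, at -0.94 and Cryab, a small heat shock protein, at -0.43. Nnat ran the other way at 24 h, with 8.07 CPM in granular and 6.11 CPM in smooth cells. In the quiescent culture it had 52.4 CPM in granular and 106.9 CPM in smooth cells. Cryab was at -0.01 at 24 h. Sod3 was at -1.27 at 24 h, with 31.6 CPM in granular and 77.4 CPM in smooth cells. In quiescent cells Sod3 was at -0.25, with 12.2 and 14.6 CPM. On the activated and 48 h plate Cdkn1a, the p53-induced inhibitor of the cell cycle p21, was called higher at 0.32 (edgeR adjusted p = 0.0285). It had 399.6 and 339.7 CPM in granular cells of the 48 h and activated cultures against 456 and 193 CPM in smooth cells, so the activated pair ran in the direction of the call and the 48 h pair against it. The term for a difference between plates did not call Cdkn1a (edgeR adjusted p = 0.608). The other higher calls there were the mitochondrial ribosomal RNAs mt-Rnr1 at 0.20 and mt-Rnr2 at 0.14. The lower ones included Cd44, a receptor for hyaluronan, at -0.46, Car6, a secreted carbonic anhydrase, at -0.85, and Cenpa at -0.39.

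With cells of each culture and gate ranked by the ratio into 4 bins, levels of 4 of the named genes did not follow 1 shape. These genes were named for a difference on the same ratio, so the bins describe it and do not test it. From the lowest to the highest bin Sepp1 had 427, 453, 489 and 496 CPM (scaled to totals) in quiescent cells, 723, 881, 884 and 1066 CPM at 24 h, 304, 377, 463 and 438 CPM at 48 h and 76.6, 74.0, 79.8 and 75.7 CPM in activated cells. Insig1 in activated cells had 79.8, 80.0, 69.0 and 46.7 CPM, and Ccnd1 at 48 h had 1111, 1147, 997 and 918 CPM. Col11a1 in quiescent cells had 120.5, 131, 182 and 181 CPM, with its widest step at the median. At 24 h Col11a1 had 96.4, 70.5, 77.0 and 88.3 CPM, highest in the lowest bin.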

How the data were processed

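Single cells from 2 plates were analysed. BWA 0.7.15, R 4.2.0 and Seurat 4.1.1 stand in the submitters' processing notes, with the builds hg19 and mm10; cell filters and phase calls are not given in the sources used here. The deposited tables hold expected counts: the authors corrected molecule counts for molecules sharing 1 of 4096 identifiers, and inverting the correction gave whole numbers to within 4.79e-05. Per the file headers, the deposited per-cell table gives counts of genes seen, intensity of each channel in arbitrary units, percent of transcripts in 2 gene classes, gene scores, phase, culture and gate.

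Expected counts of kept cells were summed per culture and side of the split and rounded to whole numbers. edgeR 4.0.16 in R 4.3.3 tested the 8 sums by quasi-likelihood, after TMM scaling and filterByExpr, with a term for culture and Benjamini-Hochberg adjustment at 0.05. It had 3 residual degrees of freedom, a common dispersion of 0.0563 as coefficient of variation and a prior worth 38.2. CPM were computed per sum, and log2 values per culture from CPM with 1 added. Totals of 1487618 to 3344824 transcripts set the precision. Intervals of a share or of 1 culture cover counting error only; those of a fitted difference come from edgeR's SE. Per-cell measures were medians, averaged over gates and tested by exact sign-flip permutation over cultures. No doublet caller was run; leaving out cells of top total or top scatter was an alternative, as were DESeq2 1.42.0, limma 3.58.1, other splits and each plate alone. The fit was tested on simulated data. Tables were made with Python 3.11.15 (pandas 2.3.3, numpy 2.4.6), tests of measures with scipy 1.17.1 and plots with matplotlib 3.10.9.

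Genes were named by rule: with no gene called, the 12 of smallest p in each direction with 1 sign in all 4 cultures and a mean of at least 20 CPM, without predicted, mitochondrial and ribosomal protein genes and pseudogenes; the 2 members of smallest p of each of 29 lists; and, always, Mki67, Id3, Egfr, Gfap, Vim, Lamp1, Ctsd, Sqstm1 and Plin2. Not every gene that this rule or a fit picked is reported here; no replacement was chosen. The split, the lists and this rule were chosen with earlier results of these data known. Genes with near-identical copies, such as those of ribosomal proteins, are uncertain.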

Additional observations from a re-analysis of the deposited data

Results flagged for a closer look

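Of 99 sets of 4 cultures examined, 6 had 1 culture far from the other 3 by Dixon's test, where chance gives about 1 in 20. At 24 h the granular minus smooth log2 difference was farther out than in the other cultures for Gpm6b (0.38, others 0.12 to 0.14), Trp53 (-0.62, others -0.32 to -0.28) and Psmd1, a proteasome subunit (-0.27, others -0.06 to -0.03). In quiescent cells the same held for Pttg1, securin (0.47, others 0.14 to 0.20), and in activated cells for Trp53inp2 (0.033, others 0.32 to 0.33) and Gfap (-1.33, others 0.35 to 0.53). Gfap in activated cells rests on 1 transcript in granular and 8 in smooth cells.

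The percent of ribosomal protein transcripts was higher in granular cells in both cultures of the quiescent and 24 h plate and lower in both of the other plate, a gap of -0.16 on the log2 scale that was not tested. The granular effect differed between the plates by edgeR's test, activated and 48 h minus quiescent and 24 h, for Ube2c (-1.73), Ccnb1 (-2.42), Cenpa (-2.05), Kpna2 (-1.14), Plk1 (-2.13), Map1b (3.24), Malat1 (0.46), Prc1 (-1.12) and Cenpe, the centromere motor CENP-E (-1.79, adjusted p = 0.00173). The share of these genes' transcripts that came from 1 cell is given with the values; its part in the calls was not tested beyond the fit without S and G2M cells.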

How the results depend on the processing

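Calls in the fit over 4 cultures stayed at 0 in each direction under all alternatives run except these: voom with limma called 3 genes higher, the quiescent and 24 h plate alone 14 higher and 6 lower, the activated and 48 h plate alone 3 higher and 4 lower, and leaving out 1 culture 0 to 1 higher and 0 to 2 lower. The 2 lower calls without the activated culture were Nnat at -1.06 (edgeR adjusted p = 0.0319) and Map1b at -2.28 (0.0424). Without the replicate block for culture, which drops the pairing, 0 genes were called, with 6 higher and 10 lower at an unadjusted p under 0.05. Of values for named genes under alternatives 2101 kept direction and side of the threshold, 11 came past it and 51 changed sign; of list medians 852 stayed within the SD over cultures and 37 did not, and of per-cell measures 143 did and 22 did not, such as autofluorescence (0.044, but 0.078 matched on size and 0.16 by SSC-A alone) and total count (0.064, but -0.0032 in outer gates and 0.16 by SSC-A alone); the cause was not tested. Leaving out 1 culture gave log2 ranges across 0 for Ccng1 (-0.027 to 0.31), Cdkn1a (-0.089 to 0.29), Egfr (-0.041 to 0.22), Id3 (-0.058 to 0.18), Mki67 (-0.051 to 0.12), Nog (-0.21 to 0.37), Plin2 (-0.17 to 0.045) and Vim (-0.099 to 0.025). Mki67 changed sign to 0.016 with 32 sums per gate, 0.031 in DESeq2, 0.57 in G0 and G1 cells, 0.0052 matched on autofluorescence, 0.13 with cells weighted equally, 0.0052 with the middle of the ratio left out, 0.18 in outer gates, 0.038 matched on phase, 0.22 on the quiescent and 24 h plate, 0.13 matched on size, 0.045 by SSC-A alone and 0.058 without top scatter. In middle gates mt-Rnr2 was -0.033, Cenpe -0.015, Anxa2 0.15, Nes 0.061, Nog -0.19, Id3 -0.092, Vim 0.041 and Sqstm1 0.019, and in outer gates Tmem175 0.058 and Plin2 0.28. On the quiescent and 24 h plate Psmd6 was 0.0047, Mcm4 -0.047, Cdkn1a -0.031, Egfr -0.16 and Plin2 0.021, and on the other Ncoa4 -0.054 and Id3 -0.0093. By SSC-A alone Cdk7 was 0.012, Soat1 -0.048, Hspa5 0.0034, Mcm4 -0.051 and Cdkn1a -0.016. Ccng1 was -0.047 and Cdkn1a -0.21 with the middle of the ratio left out, and -0.068 and -0.16 matched on size. Egfr was -0.016 in G0 and G1 cells and -0.083 with totals thinned, Map1b 0.088 thinned, Ctsd -0.018 matched on autofluorescence and Gfap -0.11 with cells weighted equally. Totals per sum limit genes of low level most: the median SE was 0.15 over all genes and 0.11 at 20 CPM or more.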

Other observations

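Splitting the same groups at the median of FSC-A alone, as a measure of cell size and added after the data were seen, gave 0 genes higher and 2 lower (0.0193%) in cells with more forward scatter, of 10337 tested with edgeR. These were Hes5, an effector of Notch signalling (-1.14, adjusted p = 0.0367), and Ptprd, a receptor phosphatase (-0.92, adjusted p = 0.0367). The deposited percent of mitochondrial transcripts equalled, to within 4.94e-08, the share of the 24 genes whose names begin with mt and a hyphen, which holds mt-Rnr1 and mt-Rnr2 and leaves out the protein-coding mitochondrial genes that the table writes without a hyphen. It was 7.10, 8.46, 9.39 and 5.79 in granular cells of the quiescent, 24 h, 48 h and activated cultures and 7.06, 8.10, 8.54 and 5.31 in smooth cells.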
